A study of Rattus norvegicus with 4 samples.

Results

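The middle ear mucosa of rats inoculated with a mixed culture of Staphylococcus aureus resistant to methicillin (MRSA) with Pseudomonas aeruginosa (the MRSA + PA group) was compared with that of rats inoculated with Pseudomonas aeruginosa alone (PA), to ask how the host transcriptome differed when both species were given in place of PA. The comparison covers every transcribed feature of at least 300 bp whose FPKM averaged 1 or more across the 4 libraries of the series, which were 15786 of 27832 features. FPKM is the number of sequenced fragments per kilobase of transcript, scaled to the number of mapped fragments. All animals were Sprague-Dawley (SD) rats, and 50 µL was injected through the eardrum of the right ear. The bacterial suspensions, in TSB medium, held 10000000 CFU of MRSA, PA or both species, and how the mixed suspension was divided between the species is not stated. The media group was given medium only. The lining of the bulla was scraped 1 week later, and each condition is 1 library made from poly(A) RNA; how many rats gave RNA to a library is not stated. Sizes are therefore given without tests, and no difference could be set against the spread between animals. The MRSA and media libraries take no part in the comparison beyond the filter on low values, and their levels are given beside it as a description.

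Middle ear mucosa is a thin airway-type lining, with ciliated and secretory cells towards the Eustachian tube and flat cells over bone elsewhere. Keratinising epithelium, as in skin, instead makes a cornified envelope: keratins KRT1 and KRT10 fill the cell, small proline-rich proteins and filaggrin are crosslinked under the membrane, and kallikrein proteases later cut the desmosomes that hold dead cells together. Cytotoxic lymphocytes (natural killer cells, CD8+ T cells and many gamma-delta T cells) kill target cells with granzymes and perforin. Osteoclasts, large cells of the macrophage lineage, dissolve bone mineral with acid and bone matrix with cathepsin K. The mucosa of the bulla lies directly on bone. In bulk tissue, fewer cells of a type and less RNA per cell cannot be told apart.

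Most features lay close together in the 2 libraries. The median log2 difference, MRSA + PA minus PA with 0.1 FPKM added to both values, was -0.03, and the middle 50% of features lay between -0.26 and 0.18. Higher by 2-fold or more in MRSA + PA were 385 features (2.44%), and at least 2-fold lower were 635 (4.02%). These shares are the ones to set beside the list counts below. The lower side reached further: 143 features were at least 8-fold lower and 44 at least 8-fold higher. Of the 635 lower features, 76 were listed at 0 in MRSA + PA, and 24 of the 385 higher ones were listed at 0 in PA. No fold is given for those. FPKM keeps no read counts, so how many reads lie behind each value is unknown and a listed 0 has no upper limit. None of the 18 housekeeping and 75 ribosomal protein genes that passed was listed at 0 in any library. Of the defining markers of the tissue, BPIFA1, which airway epithelium secretes, had 7472 FPKM in PA and 13362 in MRSA + PA. FOXJ1, the master regulator of ciliated cells, had 21.96 and 16.6 FPKM. The remaining one, the mucin MUC5B, differed far more, with 86.1 and 5.403 FPKM (log2 difference -3.97).

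**Figure D1:**
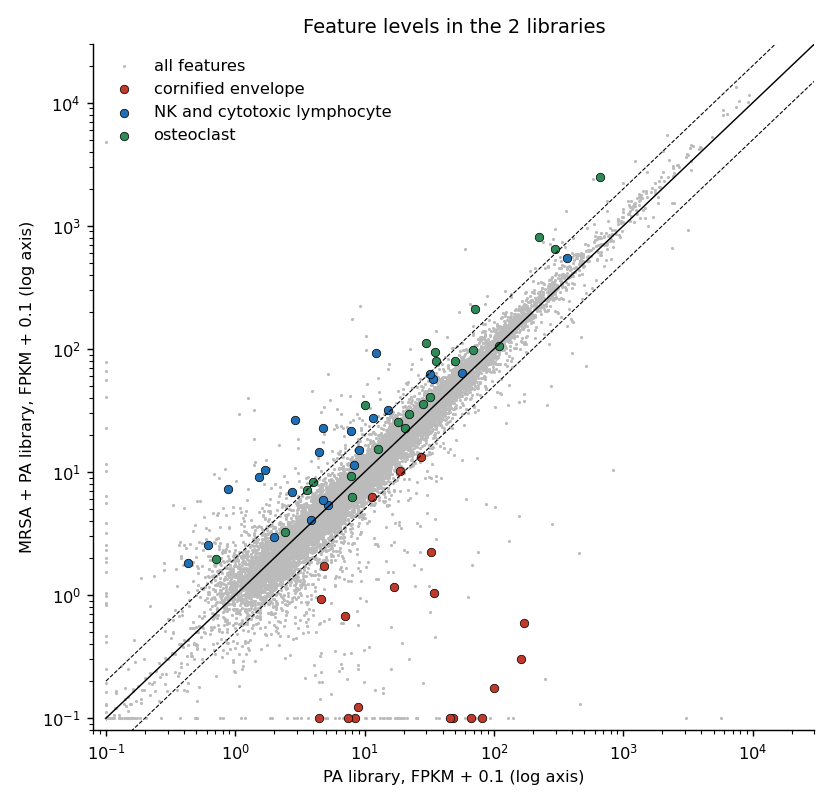
Level of each of the 15786 features in the PA library (x axis) and the MRSA + PA library (y axis), as FPKM + 0.1 on log axes, so that a feature listed at 0 lies at 0.1. The solid line marks equal levels and the dashed lines 2-fold differences; cornified envelope genes (red) lie to the lower right, while cytotoxic lymphocyte genes (blue) and most osteoclast genes (green) lie on or above the line of equality.

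The PA library held a set of transcripts of keratinising epithelium that were near or at 0 in MRSA + PA. Of the 15 named features furthest lower in MRSA + PA, 11 were listed at 0 there, all 15 were under 1 FPKM in media, and 14 were under 1 FPKM in MRSA. They included the terminal differentiation keratin KRT1, 2 small proline-rich proteins, 2 beta-defensins, the protease inhibitors SPINK7, CSTA and WFDC18, the kallikrein KLK6 and the cornified envelope proteins ASPRV1, DMKN and CNFN. The PA level of these features ran from 47.7 to 5671 FPKM. The highest of them, IGHV1OR21-1, is of another kind, an immunoglobulin-like feature of 85843 bp on chromosome 6. It was listed at 0 in MRSA + PA and media and had 5671 FPKM in PA and 2359 in MRSA. The rest of the 15 passed the filter only through their PA level, the mean of the other libraries being under 1 FPKM. Their distance is thus partly fixed by the filter. CES2E, a carboxylesterase, had 48.2 FPKM in PA and was listed at 0 in MRSA + PA.

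Keratins differed by very unequal amounts. Of 10 stratified keratins that passed, 6 were at least 2-fold lower in MRSA + PA and none higher, with a median of -1.80. PA alone brought 3 of the 10 past the filter, among them KRT1 and KRT6A, so their distance is partly fixed by the filter. KRT1, on chromosome 7, had 465 FPKM in PA and 0.0308 in MRSA + PA, beside 0.917 in MRSA and 0.224 in media. Its partner KRT10, on chromosome 10, had 456 and 2.099 FPKM, beside 2.099 and 2.85. Both are keratins of the layers above the basal one, and only the PA library held them above 2.85 FPKM. KRT5 and KRT14, the basal pair, differed far less: KRT5 had 393 FPKM in PA and 175 in MRSA + PA (log2 difference -1.17), beside 95.4 in MRSA and 83.6 in media. KRT14 had 483 and 256 FPKM (-0.92), beside 161 and 136, so that for the basal pair PA stood highest and MRSA + PA next. The simple epithelial keratins KRT8 and KRT18 were nearly equal, with 111 against 103 FPKM for KRT8 and 82.3 against 83.7 for KRT18. KRT78 and KRT80, other keratins of stratified epithelium, had 6.66 and 18.9 FPKM in PA, where MRSA + PA was listed at 0 for KRT78 and held 3.399 FPKM of KRT80. KRT6A, an activation keratin, had 47.95 FPKM in PA in a feature on chromosome 1 that was listed at 0 in the other libraries. A second KRT6A feature, on chromosome 7 beside the other type II keratins, had 4.56 FPKM in PA and 0.0975 in MRSA + PA. KRT6A features under 300 bp, outside the comparison, were also highest in PA, but not all were at 0 elsewhere. On chromosome 7, that of 250 bp had 146 FPKM in PA and 15.9 in MRSA + PA. MRSA and media held 3.296 and 3.69 FPKM of it. On chromosome 1, that of 208 bp had 489 FPKM in PA and was above 0 in MRSA + PA and MRSA. That of 237 bp had 398 FPKM in PA and was listed at 0 in the other libraries. How reads were divided between such copies is unknown.

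Cornified envelope proteins were the list furthest from equality. Of 48 genes written for the list, 31 were found and 20 passed the filter, and 14 of those 20 passed only because of their PA level, the mean of the other 3 libraries being under 1 FPKM. Their distance is thus partly fixed by the filter. The 20 had a median log2 difference of -5.82, beside -0.03 over all features, and 18 were at least 2-fold lower in MRSA + PA and none higher. Summed over the 20, the level was 859.6 FPKM in PA and 37.3 in MRSA + PA, beside 40.4 in MRSA and 56.3 in media. Of the 11 that did not pass, 7 were also at least 2-fold lower on the same scale, none above 2.000 FPKM in either library. The level of the other inoculated library, MRSA, was close to that of MRSA + PA.

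SBSN (suprabasin) was the highest of the list, with 172 FPKM in PA and 0.489 in MRSA + PA. SPRR1A, a small proline-rich envelope precursor on chromosome 2, had 161 and 0.204 FPKM, and DMKN (dermokine) 100.4 and 0.0752 FPKM. ASPRV1, the protease that processes profilaggrin, had 81.3 FPKM in PA, and CSTA, a cysteine protease inhibitor crosslinked into the envelope, 66.01. CNFN (cornifelin) had 47.7 FPKM, and KRTDAP, a keratinocyte differentiation peptide, 45.3. These last 4 were all listed at 0 in MRSA + PA. FLG (filaggrin), which bundles keratin filaments, had 8.84 FPKM in PA and 0.0237 in MRSA + PA. CDSN, the adhesive corneodesmosin, had 32.6 and 2.14 FPKM (log2 difference -3.87). The plakins EVPL and PPL, which many stratified and simple epithelia also make, differed by -0.88 and -0.88, under 2-fold each.

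**Figure D2:**
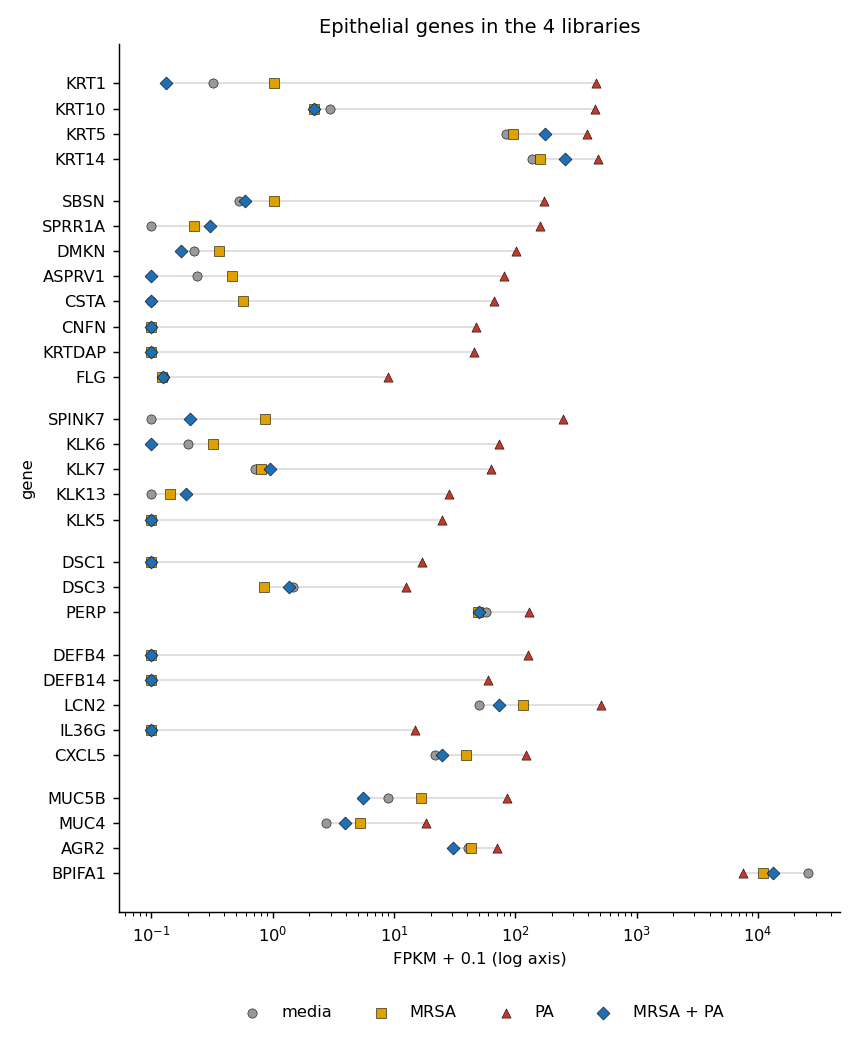
Levels of epithelial genes (y axis) in the 4 libraries as FPKM + 0.1 on a log x axis, where 0.1 stands for a listed 0; each symbol is 1 library. The PA library (triangles) stands to the right for keratin, envelope, kallikrein, desmosome and defensin genes. For most of these MRSA + PA (diamonds) stands with MRSA and media, but for KRT5 and KRT14 it lies between them and PA. For BPIFA1, at the bottom, PA is the lowest.

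Promoters of the cornified envelope members were read for a sequence motif. The AP-1 motif TGAGTCA, or TGACTCA on the other strand, is bound by FOS and JUN family factors, which act in keratinocyte differentiation. In RefSeq promoters of rat build GRCr8 (250 bases before to 50 after the start), the motif was present in 5 of the 17 members matched, counting a gene if any of its promoters held it, against 5.04% of all 27457 genes counted the same way and 4.63% of all 33469 promoters. It was present in 4 of 15 matched members of the epithelial protease list, and in KLK6 the match lies after the start. Among matched cytotoxic lymphocyte and osteoclast members the motif was present in none of 16 and none of 15. With 5.04% of all genes holding it, lists of this size may well hold none, so no contrast is drawn. Most matched envelope members thus held no match. MMP13, which was higher in MRSA + PA (2.03), also held the motif, 66 bases before the start. A match is a description of letters and not a site. The promoters of SBSN, DMKN and KRTDAP, neighbours on the forward strand of chromosome 1, and of SPRR1A, on the reverse strand of chromosome 2, are shown with the motif in capitals. SBSN has another promoter entry, which holds no match and is not shown. The motif begins 182 and 76 bases before the start in SBSN, 129 in DMKN, 81 in KRTDAP and 147 and 117 in SPRR1A. In GRCr8 they are chr1:95128731-95129030, chr1:95141370-95141669, chr1:95165612-95165911 and chr2:180752576-180752875.
SBSN: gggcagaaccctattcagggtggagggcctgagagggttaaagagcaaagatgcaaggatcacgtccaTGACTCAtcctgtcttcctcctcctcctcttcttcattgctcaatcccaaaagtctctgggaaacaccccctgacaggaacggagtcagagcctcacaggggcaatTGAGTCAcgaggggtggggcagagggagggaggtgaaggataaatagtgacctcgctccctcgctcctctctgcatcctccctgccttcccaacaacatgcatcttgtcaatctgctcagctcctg
DMKN: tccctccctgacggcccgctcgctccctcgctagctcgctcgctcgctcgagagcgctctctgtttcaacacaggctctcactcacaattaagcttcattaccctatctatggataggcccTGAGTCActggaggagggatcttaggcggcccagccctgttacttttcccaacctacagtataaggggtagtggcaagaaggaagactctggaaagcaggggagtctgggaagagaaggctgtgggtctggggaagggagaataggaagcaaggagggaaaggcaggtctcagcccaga
KRTDAP: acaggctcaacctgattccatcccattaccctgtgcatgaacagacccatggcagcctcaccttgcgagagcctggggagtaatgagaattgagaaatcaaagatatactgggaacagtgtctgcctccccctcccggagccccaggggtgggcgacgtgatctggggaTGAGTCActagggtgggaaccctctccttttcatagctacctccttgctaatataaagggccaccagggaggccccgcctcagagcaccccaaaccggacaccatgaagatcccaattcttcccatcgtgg
SPRR1A: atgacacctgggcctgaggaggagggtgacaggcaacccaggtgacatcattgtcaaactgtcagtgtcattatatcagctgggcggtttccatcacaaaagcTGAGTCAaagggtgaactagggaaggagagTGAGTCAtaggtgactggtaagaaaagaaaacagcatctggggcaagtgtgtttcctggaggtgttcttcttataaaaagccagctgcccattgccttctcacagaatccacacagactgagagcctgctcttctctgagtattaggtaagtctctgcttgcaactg

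Proteases and protease inhibitors of the epithelial surface followed the same split. Kallikreins are serine proteases whose cascade sheds cornified cells, and their genes lie side by side on chromosome 1. In PA, KLK6 had 72.9 FPKM, KLK7 (the chymotryptic kallikrein of skin) 63.3, KLK13 28.3, KLK5 (which activates KLK7) 24.7, KLK14 13.8 and KLK9 9.800. In MRSA + PA, KLK5 and KLK6 were listed at 0, and the highest of the 6 was KLK7 at 0.857 FPKM. Not every gene of the row was abundant in PA: KLK11 had 1.89 FPKM, KLK10 1.41 and KLK12 0.109, and none of these passed the filter. SPINK7, an inhibitor of serine proteases made by stratified epithelium, had 248 FPKM in PA and 0.108 in MRSA + PA, beside 0.766 in MRSA, and was listed at 0 in media. Of the 22 members of this list that passed, 13 were at least 2-fold lower in MRSA + PA and none higher, with a median of -3.44; 12 of the 22 passed only through PA. When only features averaging 5 FPKM or more were kept, the median of this list was -0.37. Members of the airway surface were near equal: SPINT2, an inhibitor of membrane proteases, had 288 and 289.96 FPKM. SLPI, the leukocyte protease inhibitor of mucus, went the other way with 526 FPKM in PA and 963 in MRSA + PA (0.87), beside 1041 in MRSA and 185 in media.

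Desmosome and hemidesmosome genes were lower in MRSA + PA mostly by small amounts. Of 21 that passed, 20 had a lower value and 7 were at least 2-fold lower, with a median of -0.70. PA alone brought 2 of the 21 past the filter. DSC1, the desmocollin of the uppermost living layers, had 16.9 FPKM in PA and was listed at 0 in the other 3 libraries. DSC3 and DSG3, cadherins of the lower layers, had 12.5 and 1.26 FPKM (-3.22) and 6.396 and 1.54 FPKM (-1.99). The junction protein PERP had 130.5 and 50.3 FPKM (-1.37), and JUP (plakoglobin) 75.2 and 47.98 (-0.65). Among tight junction genes 1 of 19 passed 2-fold: CLDN1, the claudin of the skin barrier, had 16.9 FPKM in PA and 6.87 in MRSA + PA (-1.28), while CLDN4 had 168 and 164 and EPCAM 254 and 222.

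Of 21 antimicrobial genes that passed, 5 were at least 2-fold lower in MRSA + PA and 1 higher, with a median of -0.08. PA alone brought 2 of the 21 past the filter. DEFB4 and DEFB14, inducible beta-defensins on chromosome 16, had 127 and 59.6 FPKM in PA and were listed at 0 in the other 3 libraries. LCN2, which starves bacteria of iron-loaded siderophore, had 513 FPKM in PA and 72.7 in MRSA + PA (-2.82), beside 115 in MRSA and 49.6 in media. DEFB1, the constitutive beta-defensin, had 65.8 and 61.2 FPKM, and S100A8, a subunit of calprotectin, 287 and 306. LYZ1 (lysozyme) had 7802 FPKM in PA and 10356 in MRSA + PA (0.41). PLA2G2A, a secreted phospholipase that attacks bacterial membranes, was the member at least 2-fold higher, with 12.7 FPKM in PA and 44.2 in MRSA + PA (1.79). IL36G, an interleukin-1 family cytokine of keratinocytes, had 14.7 FPKM in PA and was listed at 0 elsewhere. IL1A, the alarm cytokine of epithelium, had 3.39 and 0.783 FPKM (-1.98).

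Keratinising skin is no part of the labelled tissue, and the epidermal markers KRT1, KRT10 and FLG stood at 2.85 FPKM or below in the other 3 libraries. LOR was not found by name. How much ear canal skin, eardrum or transformed mucosa lay in the scraped tissue was not tested. Of other tissues beside the mucosa, the skeletal muscle list summed to 305 FPKM in PA and 281 in MRSA + PA. TPM2 made 185 and 176 FPKM of it, while the defining markers ACTA1 (0.699 and 0.259 FPKM) and CKM (0.187 and 0.0901) were low. The adipocyte list summed to 373 and 367 FPKM, with the defining markers ADIPOQ at 1.14 and 0.271 and PLIN1 at 0.0153 and 0. The cartilage list was also lower in MRSA + PA, with a sum of 294 FPKM in PA and 149.8 in MRSA + PA, while the osteoclast list was higher, with 1745 and 4960.2. Of 10 melanocyte genes that passed, MLANA alone was 2-fold apart, at 0.497 and 3.44 FPKM (2.57), and the list had a median of 0.03.

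Secretory genes of the airway type were also lower in MRSA + PA. Of 27 that passed, 15 were at least 2-fold lower and 1 higher, with a median of -1.20. PA alone brought 2 of the 27 past the filter, and MRSA + PA alone 1. MUC5B, the main gel-forming mucin of the middle ear, had 86.1 FPKM in PA and 5.403 in MRSA + PA (-3.97), beside 16.5 in MRSA and 8.82 in media. MUC5AC, the second airway gel mucin, had 4.55 and 0.847 FPKM (-2.30), and the membrane mucin MUC4 18.3 and 3.82 (-2.23). AGR2, which folds mucins, had 70.7 and 30.5 FPKM (-1.21), PIGR, which carries IgA across epithelium, 35.2 and 9.16 (-1.93), and SPDEF, the goblet cell transcription factor, 18.5 and 6.92 (-1.41). TFF3 and MUC13 lay further down on low levels, at 6.87 and 0.230 FPKM for TFF3 and 3.400 and 0.507 for MUC13. The most abundant secreted proteins did not share this size. SCGB1A1, the club cell protein, had 1537 and 1000.01 FPKM (-0.62), and BPIFA1 was higher in MRSA + PA by 0.84. BPIFA2 was the exception at 2-fold, with 0.282 FPKM in PA and 1.895 in MRSA + PA (2.39).

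Ion and water channels gave 5 of 26 members lower and 1 higher at 2-fold, with a median of -0.54. PA alone brought 2 of the 26 past the filter. AQP3, the water and glycerol channel of basal and stratified epithelium, had 60.8 FPKM in PA and 5.94 in MRSA + PA (-3.33). ATP12A, a proton pump that acidifies airway fluid, had 8.81 and 0.171 FPKM (-5.04). CFTR, the chloride channel, had 9.25 and 3.14 (-1.53), and SLC26A4 (pendrin), an anion exchanger, 32.9 and 11.6 (-1.49). For all 4 genes PA was the highest of the 4 libraries. Motile cilium genes shifted little and together: the median of 63 was -0.39, 57 had a lower value in MRSA + PA, and MORN3 alone passed 2-fold, at 2.58 and 1.18 FPKM. Axonemal dynein heavy chains such as DNAH12 had 9.38 and 4.83 FPKM (-0.94).

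**Figure D3:**
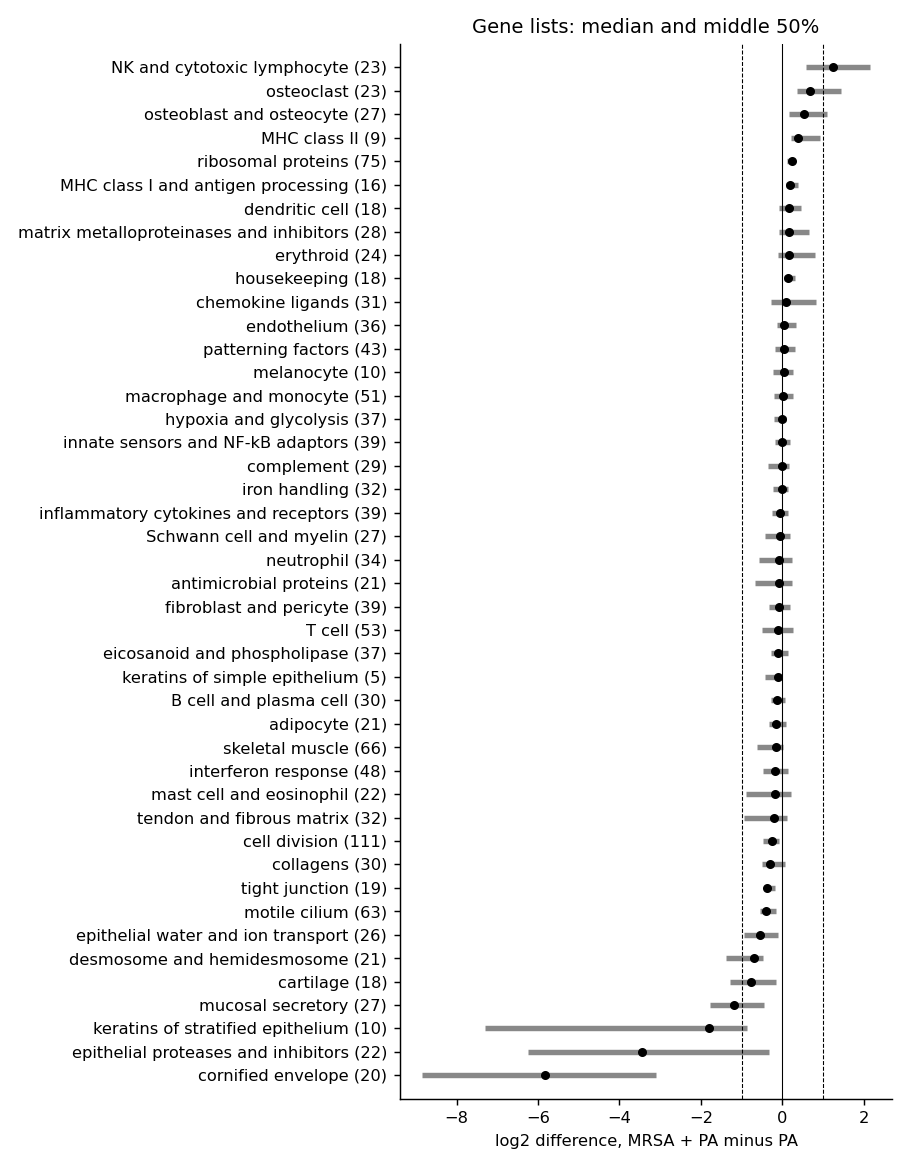
Log2 difference, MRSA + PA minus PA (x axis), of 44 gene lists (y axis, with the number of members that passed the filter); points are list medians, bars the middle 50% of members, and dashed lines 2-fold differences. Cornified envelope, protease and stratified keratin lists extend far to the left, and NK and cytotoxic lymphocyte, osteoclast and osteoblast lists lie furthest to the right.

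Cytotoxic lymphocyte genes formed the list furthest higher in MRSA + PA. All 23 members that passed had a higher value there, 13 were at least 2-fold higher, and the median was 1.25. Of 36 members found, 13 did not pass. Among those, 6 were at least 2-fold higher and 1 lower, none above 1.30 FPKM in either library. MRSA + PA alone brought 1 of the 23 past the filter. GZMM, a granule protease, had 2.77 FPKM in PA and 26.3 in MRSA + PA (3.20), beside 25.01 in MRSA and 4.92 in media. GZMK, a second granzyme, had 0.771 and 7.14 FPKM (3.05), and PRF1 (perforin) 2.66 and 6.84 (1.33). The classic granzymes GZMA and GZMB stayed at 0.550 FPKM or below in all 4 libraries. NKG7, a granule membrane protein, had 4.68 and 22.8 FPKM (2.26), with 18.9 in MRSA and 9.87 in media. The transcription factors of this program moved alike on low levels: EOMES had 0.515 and 2.46 FPKM (2.06) and TBX21 (T-bet) 0.334 and 1.71 (2.06). For these 6 genes higher in MRSA + PA, its level was closer to that of MRSA than to that of PA, and for all but PRF1 the PA level was below that of media.

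Natural killer receptors differed among themselves. KLRB1F, an NKR-P1 family lectin receptor, had 1.597 FPKM in PA and 10.3 in MRSA + PA (2.62), and KLRD1 (CD94) 4.36 and 14.4 (1.70). KLRA7, a Ly49 family receptor and the most abundant of them, had 56.9 and 63.4 FPKM (0.16), and NCR1 (NKp46) 4.69 and 5.85 (0.31), so these were near equal. Ly49 and NKR-P1 genes are families of near-identical copies, and how shared reads were divided among them affects each value. TYROBP, the signalling adaptor that macrophages also use, had 365 and 552 FPKM (0.60).

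The T cell receptor constant regions separated gamma-delta from alpha-beta chains. TRDC, the delta constant region on chromosome 15, had 6.41 FPKM in PA and 42.3 in MRSA + PA (2.70), beside 50.2 in MRSA and 6.03 in media. The gamma constant region feature TCC2_MOUSE, on chromosome 17, had 10.3 and 51.8 FPKM (2.32), beside 78.6 and 7.81. A second one, TCC4_MOUSE, had 1.57 and 4.74 FPKM (1.53). MRSA + PA thus exceeded PA by over 2-fold for all 3. The alpha constant region TCRA had 57.6 and 47.7 FPKM (-0.27), and the beta constant region TCB2_MOUSE 57.3 and 47.5 (-0.27). The other beta region, TCB1_MOUSE, had 27.4 and 33.7 (0.30). All 3 lay within 2-fold. The general T cell list had none of 53 members 2-fold apart and a median of -0.09: CD3E, a signalling chain of the receptor, had 27.5 and 24.5 FPKM (-0.17). Within it CD8A was higher in MRSA + PA (11.1 and 20.3 FPKM, 0.86) and CD4 lower (177 and 124 FPKM, -0.51), as was ICOS, a costimulator (40.7 and 20.9 FPKM, -0.96), each by less than 2-fold.

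Chemokine ligands went both ways, with 6 of 31 at least 2-fold higher and 3 lower. PA alone brought 1 of the 31 past the filter, and MRSA + PA alone 1. CCL5, which cytotoxic lymphocytes release and follow, had 12.05 FPKM in PA and 92.5 in MRSA + PA (2.93), beside 71.9 in MRSA and 17.2 in media. XCL1, made by activated killer cells, had 1.43 and 9.01 FPKM (2.57), and CXCL9, an interferon-gamma induced attractant of T cells, 6.52 and 29.3 (2.15). CCL19, which draws T cells and dendritic cells through CCR7, had 5.87 and 24.1 FPKM (2.02). The ligands lower in MRSA + PA bind CXCR2 or CXCR5. CXCL5, a neutrophil attractant of epithelium, had 123 and 24.8 FPKM (-2.30), CXCL2, another, 19.9 and 9.71 (-1.03), and CXCL13, which draws B cells, 69.6 and 33.4 (-1.05). Neutrophil genes had 6 of 34 members at least 2-fold lower and 1 higher (MMP9), with a median of -0.08. The furthest lower were LY6G6C and then LCN2 (-2.82), which the antimicrobial list also holds. LY6G6C had 24.3 FPKM in PA and 1.09 in MRSA + PA (-4.36), beside 1.13 in MRSA and 1.90 in media. Which cells made these transcripts was not tested. The growth factor receptor CSF3R had 30.4 FPKM in PA and 10.1 in MRSA + PA (-1.58) and the chemokine receptor CXCR2 15.2 and 5.89 (-1.36). The oxidase subunit CYBB, which macrophages share, had 157 and 162 FPKM (0.04).

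**Figure D4:**
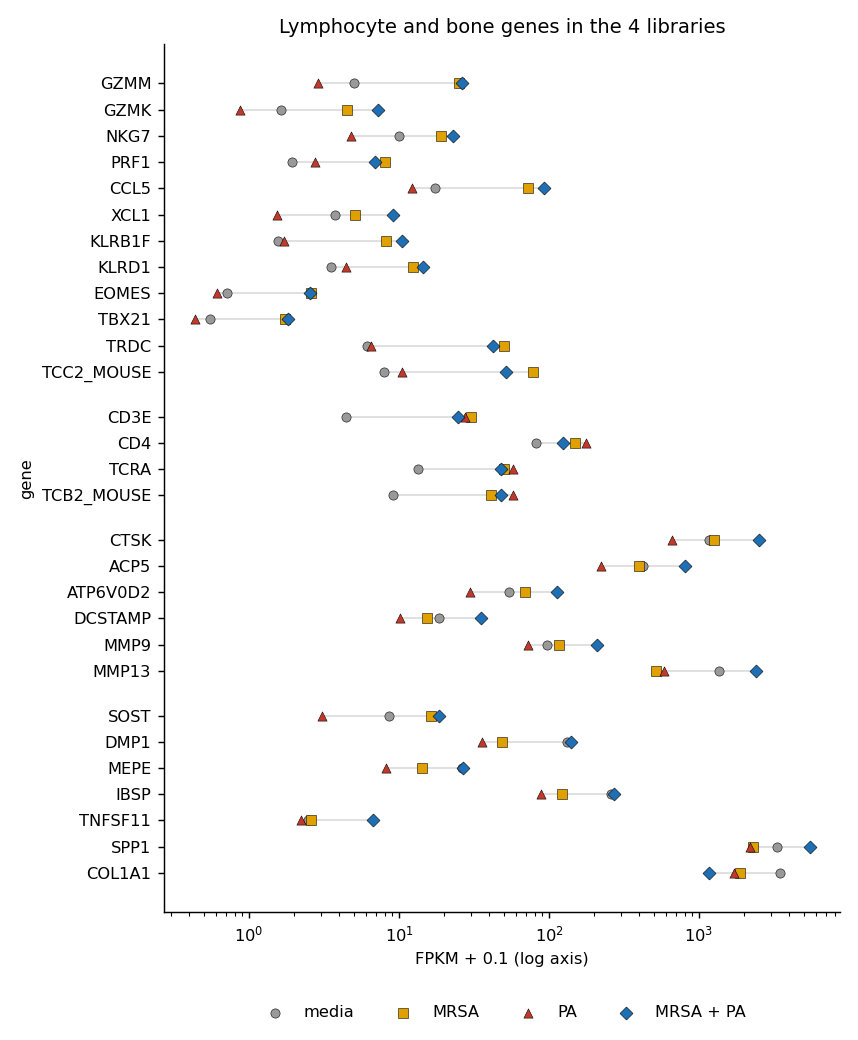
Levels of cytotoxic and gamma-delta genes, general T cell genes, osteoclast and protease genes, and osteoblast and osteocyte genes (y axis, in 4 blocks from top to bottom) in the 4 libraries, as FPKM + 0.1 on a log x axis; each symbol is 1 library. MRSA + PA (diamonds) stands right of PA (triangles) for the first block, for the osteoclast block and for all osteoblast and osteocyte genes but COL1A1, while the T cell block holds the 2 libraries close together.

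B cell and plasma cell genes hardly differed as a list, with a median of -0.13 over 30 members, 1 higher and 1 lower at 2-fold. IGJ, the joining chain of polymeric antibody, had 101 FPKM in PA and 122 in MRSA + PA, and SDC1, a surface proteoglycan of plasma cells and epithelium, 296 and 279.6. The 5 immunoglobulin constant regions that passed lay within 2-fold, between -0.87 for IGHE_RAT (epsilon) and 0.91 for LAC2_RAT (lambda): IGHM (mu) had 139 and 161 FPKM and the kappa constant region KACB_RAT 238 and 227. The IGHE_RAT and IGHM features span 182417 and 239164 bp, and what else they hold was not tested. The variable segments, which are rearranged separately in each B cell clone, were scattered. Of 131 variable features that passed, 60 were higher by 2-fold or more in MRSA + PA and 35 lower. They were grouped by description and summed to 1839 FPKM in PA and 3369 in MRSA + PA. The grouping left out IGHV1OR21-1, with 5671 FPKM in PA and listed at 0 in MRSA + PA, so the balance between the 2 libraries depends on it. The 116 above 0 FPKM in both libraries ran from -5.44 to 4.98. LV603_HUMAN, a lambda segment, had 60.05 FPKM in PA and 646 in MRSA + PA (3.42), and KV501_HUMAN, a kappa segment, 7.87 and 173 (4.44). HVM21_MOUSE, a heavy chain segment, went the other way with 258 and 34.9 FPKM (-2.89). Such segments were 11 of the 15 named features furthest higher in MRSA + PA. Segments are near-identical copies and reads may be divided among them, and the number of B cell clones or animals behind each value is unknown. The grouping by description was made after the values were seen.

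**Figure D5:**
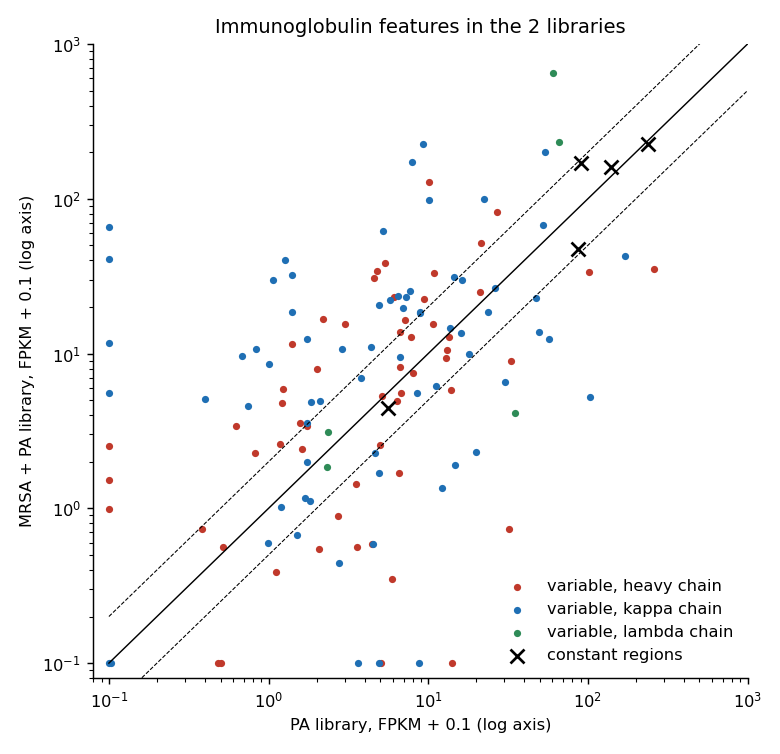
Immunoglobulin features in the PA library (x axis) and the MRSA + PA library (y axis), as FPKM + 0.1 on log axes, where 0.1 stands for a listed 0; dots are the 131 variable segment features by chain and crosses the constant regions. The variable features spread over both sides of the line of equality, beyond the dashed 2-fold lines, while the crosses stay within them.

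Most osteoclast genes were higher in MRSA + PA. Of 23 osteoclast genes, all of which passed, 21 had a higher value in MRSA + PA. At least 2-fold higher were 10 and none was 2-fold lower, with a median of 0.68. MRSA + PA alone brought 1 of the 23 past the filter. CTSK, the collagen-cutting cathepsin K, had 659 FPKM in PA and 2491 in MRSA + PA (1.92), beside 1259.8 in MRSA and 1172 in media. ACP5, the tartrate-resistant acid phosphatase used to stain osteoclasts, had 221 and 807 FPKM (1.87), beside 395 and 424. PA was thus the lowest of the 4 libraries and MRSA + PA the highest for both. ATP6V0D2, a subunit of the acid pump, had 29.7 and 113 FPKM (1.92), DCSTAMP, needed for osteoclast fusion, 9.98 and 35.1 (1.81), and the integrin ITGB3 34.7 and 93.6 (1.43). The receptor and regulators that start the program differed less, with 12.5 and 15.2 FPKM for TNFRSF11A (RANK) and 22.1 and 29.5 for NFATC1.

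Of 27 osteoblast and osteocyte genes that passed, 7 were higher in MRSA + PA by 2-fold or more and none lower, with a median of 0.54. SOST (sclerostin), made by the osteocytes embedded in bone, had 2.95 FPKM in PA and 18.4 in MRSA + PA (2.60), beside 16.3 in MRSA and 8.42 in media. DMP1, a mineralisation protein, had 35.4 and 141 FPKM (1.99), MEPE 8.095 and 26.5 (1.70), and IBSP (bone sialoprotein) 88.9 and 270.5 (1.60). The osteoclast-inducing ligand TNFSF11 (RANKL) had 2.13 and 6.63 FPKM (1.59), and its decoy TNFRSF11B (osteoprotegerin) 17.4 and 23.4 (0.42). BGLAP (osteocalcin), a product of osteoblasts, had 1529 and 2717 FPKM (0.83). COL1A1, the main bone collagen, was lower in MRSA + PA at 1171 against 1704 FPKM (-0.54), and the osteoblast factors RUNX2 and SP7 differed by 0.23 and 0.15. For DMP1, MEPE and IBSP the media library was close to MRSA + PA, at 132, 26.4 and 257 FPKM. How much bone came off with the mucosa was not tested.

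Matrix metalloproteinases gave 3 of 28 higher and 1 lower at 2-fold, beside 2.44% and 4.02% of all features. The lower share was near that of all features. MMP13, the collagenase of bone and cartilage, had 587 FPKM in PA and 2388 in MRSA + PA (2.03), beside 519.5 in MRSA and 1366 in media, and MMP9, a gelatinase of osteoclasts and neutrophils, 71.7 and 209.8 (1.55). MMP7, the metalloproteinase of injured epithelium, was lower at 9.02 and 1.77 FPKM (-2.29). SPP1 (osteopontin), a product of bone cells and macrophages, had 2179 and 5466 FPKM (1.33). The macrophage list as a whole had a median of 0.02 over 51 genes, with 3 higher (CTSK, SPP1 and TIMD4) and 1 lower, CD163, the haemoglobin scavenger receptor, at 12.7 and 5.77 FPKM (-1.13).

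Cartilage and fibrous matrix genes tended to lower values. Of 18 cartilage genes, 6 were at least 2-fold lower and 1 higher, with a median of -0.78. PA alone brought 2 of the 18 past the filter. COL9A1 had 27.3 FPKM in PA and 1.52 in MRSA + PA (-4.08), and COL2A1, the main cartilage collagen, 26.5 and 2.12 (-3.58), while ACAN (aggrecan) had 0.452 and 0.202. Of 32 tendon and fibrous matrix genes 7 were lower and none higher. KERA (keratocan) had 8.63 and 0.642 FPKM (-3.56), beside 93.9 in MRSA and 422 in media, and FN1 (fibronectin) 369 and 153 (-1.27). The fibroblast list had none of 39 members 2-fold apart. The skeletal muscle list held 10 lower and 2 higher of 66, all from levels that were low in both libraries: MYL2, a myosin light chain, had 2.43 FPKM in PA and was listed at 0 in MRSA + PA, beside 1487 in media. Haemoglobin HBB had 409 and 790.2 FPKM (0.95), and TFRC, the transferrin receptor, 33.1 and 95.6 (1.53).

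Antigen presentation and interferon genes differed in few members. Of 9 MHC class II genes, 2 were higher by 2-fold or more in MRSA + PA: RT1-BB, a class II beta chain, had 279.9 and 678 FPKM (1.28) and HLA-DOA, a modulator of peptide loading, 4.65 and 17.5 (1.89). CD74, the invariant chain, had 2233 and 3431 FPKM (0.62), and B2M, the class I light chain, 3479 and 4447 (0.35). UBD, a ubiquitin-like protein induced by interferon-gamma and TNF, had 43.4 FPKM in PA and 124 in MRSA + PA (1.51). Of 48 interferon-response genes 2 were higher, CXCL9 and CXCL11, and 2 lower, shares near those of all features (2.44% and 4.02%). The lower ones were ISG15 (31.7 and 13.99 FPKM, -1.18) and OASL (4.504 and 1.77 FPKM, -1.30), and the list had a median of -0.17. Innate sensors and NF-kB adaptors had none of 39 members 2-fold apart, with a median of 0.00. Complement genes had 2 of 29 lower, C9 (14.4 and 6.16 FPKM) and C3AR1 (17.7 and 8.54 FPKM), a small count beside 4.02% of all features. Inflammatory cytokine genes had 1 higher, IL12B (0.524 and 1.296 FPKM), and 4 lower of 39. IL12B passed the filter only through MRSA + PA, and 3 lower members (IL36G, CSF3 and IL1A) only through PA. Their distance is thus partly fixed by the filter. Cell division genes had 2 of 111 lower, HMMR and ASPM, a share below the 4.02% of all features, and a median of -0.25. Ribosomal protein genes had a median of 0.25 over 75. RPS29, the named feature with the highest mean of the 2 libraries among those of at least 300 bp, had 9424 FPKM in PA and 11638 in MRSA + PA.

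A few furthest features fell outside these groups. ITLN1, an intelectin that binds microbial sugars, had 3.81 FPKM in PA and 45.1 in MRSA + PA (3.53), beside 144 in MRSA and 22.2 in media, so that PA was the lowest of the 4. NKAIN2, a neuronal membrane protein, was listed at 0 in PA and had 10.01 FPKM in MRSA + PA, beside 5.22 in MRSA and 19.6 in media. Of 22 mast cell and eosinophil genes, 2 were at least 2-fold higher and 4 lower, with a median of -0.18. PRG2, the eosinophil major basic protein, had 1.77 FPKM in PA and 7.38 in MRSA + PA (2.00), beside 13.05 in MRSA and 11.4 in media. The other higher member, PRG3, had 0.394 and 2.32 FPKM (2.29). MCPT2, a mast cell protease, was lower at 14.1 and 5.63 FPKM (-1.30). So were SIGLEC5 at 9.46 and 4.41 FPKM (-1.08) and CCR3 at 2.88 and 1.33 (-1.06). SOX21, a transcription factor of several epithelia, had 3.11 FPKM in PA and was listed at 0 in MRSA + PA.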

How the data were processed

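Total RNA of middle ear mucosa was enriched for poly(A) RNA and sequenced by the authors, 1 library for each condition. Conditions were taken from sample titles and characteristics, because the treatment protocol names MRSA in every sample. Per the submitters' processing notes, reads were mapped with STAR 2.3.0e and quantified with Cufflinks 2.1.1. The authors' deposited table gives FPKM, scaled by the authors to transcript length and library size, so how many reads lie behind a value is unknown, as is its precision. The study's methods name the human reference, but the features lie on the numbered chromosomes and X of the rat and no build is named, so chromosomes alone are given. The authors' 3 comparison tables (rescaled values, log2 fold change, p and q against media) were not used; 12 of their columns give values per library again.

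Features of at least 300 bp whose FPKM averaged 1 or more across the 4 libraries were compared as the log2 ratio of MRSA + PA to PA after adding 0.1 FPKM to both. The arithmetic was tested on simulated data. A 2-fold difference was counted, with no test. The members of 44 lists (1812 entries) were matched by symbol, each gene by its feature with the highest mean. Members and lists were chosen with earlier results of these data known. Genes were named by a rule: the 15 named features furthest either way that averaged 5 FPKM or more in the 2 libraries, the 10 most abundant, and in each list the 2 most abundant and up to 3 furthest apart in each direction among those 2-fold apart. All other genes named, and the segment classes, were chosen with their values in view. Alternatives were another added value, 2 other scalings, other filters on level and length, 1 feature per name and other fold limits; leaving out features listed at 0 was chosen after seeing the data. Python 3.11.15 with numpy, pandas and matplotlib was used.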

Additional observations from a re-analysis of the deposited data

How the results depend on the processing

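The counts of features at least 2-fold higher and lower in MRSA + PA, 385 and 635, moved by over 1.5 times under some alternatives. They were 247 and 390 with 1 FPKM added, 911 and 1768 with no filter on low values, 179 and 228 at a mean of at least 5 FPKM, 179 and 377 with 1 feature per gene name, 914 and 1529 at 1.5-fold, and 112 and 236 at 4-fold. They stayed within 1.5 times under the remaining alternatives, among them 361 and 559 over features above 0 FPKM in both libraries, an alternative chosen after seeing the data. Scaling to equal FPKM sums moved the median of all features from -0.03 to -0.16 and gave 309 higher and 784 lower. Under it the sign of 7 list medians within 0.14 of 0 changed, including those of chemokine ligands (0.10 to -0.04) and of macrophage genes (0.02 to -0.11).

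The median of the cornified envelope list (-5.82) was -3.25 with 1 FPKM added, -8.23 with 0.01 added, -3.79 with no filter and -8.19 at a mean of at least 5 FPKM. That of epithelial proteases and inhibitors (-3.44) was -2.01 with 1 FPKM added, -2.00 with no filter, -0.37 at a mean of at least 5 FPKM and -4.21 with the mean of the 2 compared libraries at 1 FPKM or more, where that of stratified keratins went from -1.80 to -2.44. No list with a median 2-fold or more from 0 changed sign. Among the 210 named genes, ZFP120 alone reversed, to -0.75 with no length minimum, which takes another of the many features of that name; the feature of the rule was listed at 0 in PA. No paired analysis was possible because each condition is 1 library and no test was made. Leaving out a replicate was likewise not possible. FPKM keeps no reads per feature, so small differences among low values cannot be weighed, and animal, library and inoculum cannot be told apart.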

Other observations

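Features without a gene name were 1479 of those compared, of which 116 (7.84%) were higher by 2-fold or more in MRSA + PA and 165 (11.2%) lower, beside 2.44% and 4.02% of all features. Some features furthest apart are single members of a name whose other features behave otherwise. OCC-1, on chromosome 7, had 825 FPKM in PA and 10.3 in MRSA + PA, beside 1074 in MRSA and 1908 in media. A feature of COX7B on chromosome 6, a subunit of cytochrome c oxidase, had 155 FPKM in PA and 4.26 in MRSA + PA, while the COX7B feature on chromosome X had 379.8 and 475 FPKM. Copies of a gene can share reads, and how these were divided was not tested.

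Features shorter than 300 bp were outside the comparison. Of 158 with a mean of at least 1 FPKM, 14 (8.86%) were higher by 2-fold or more in MRSA + PA and 46 (29.1%) lower, with a median log2 difference of -0.35. Their FPKM are divided by very short lengths.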
